A study of Rattus norvegicus with 8 samples.

Results

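Stellate ganglia, the paired sympathetic ganglia that supply the heart, were profiled by RNA sequencing in 4 Wistar rats and 4 spontaneously hypertensive rats (SHR), with 1 library per rat. All 8 rats were 16 weeks old, no treatment is named, the labels name the right ganglion, and the study's methods state that all were male. Wistar is an outbred stock with normal blood pressure and SHR an inbred strain, so that hypertension and strain background cannot be told apart. The account below covers the long noncoding records of the quantified transcriptome. These are the RefSeq records whose identifier starts with NR_, the prefix for noncoding RNA, and whose length is above 200 bases, and there were 210 of them among 18314 records. The other records were 17642 messenger RNA records (prefix NM_) and 462 shorter NR_ records.

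Long noncoding RNAs are transcribed and often spliced and polyadenylated like messenger RNAs, but are not known to be translated into a conserved protein. Some act on chromatin, such as Xist on the inactive X chromosome, some host small nucleolar RNAs in their introns, and others are structural parts of ribosomes, signal recognition particles or telomerase. Many are less abundant than messenger RNAs and restricted to certain tissues.

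The NR_ prefix gathers several kinds of RNA. By the RefSeq gene table of assembly GRCr8, 196 of the 210 records belonged to 172 genes and 14 were not paired with a gene there. Of the records, 126 came from lncRNA genes, 47 were noncoding transcripts of protein-coding genes, 16 came from transcribed pseudogenes, 3 were ribosomal RNA and 4 were other noncoding RNAs. A label of long noncoding RNA in the strict sense therefore applied to 126 of them. Lengths ran from 245 bases, in Hotairm1, to 12659 bases, in Xist, with a median of 1358.5 bases. The kit named in the labels selects messenger RNA and the study's methods name an amplification step, so levels of RNAs without a poly(A) tail, such as ribosomal RNA, may not reflect their content in the tissue.

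The levels used below are the TPM of the files, which is per length, and the comparison of strains used estimated counts scaled between rats by edgeR's TMM method, called normalised counts. Estimated counts per rat summed to 25820299 to 35509074, and were lowest in SHR replicate 2. No pair of rats of a strain agreed within the noise of sampling. All 11 sympathetic neuron markers that were found, of 12 listed, had a mean of at least 1 TPM, and their summed TPM ran from 34421 to 40166 in Wistar and from 35106 to 40690 in SHR. Blood markers (3 of 3 found) varied most in absolute level, from 3172 to 9633 TPM in Wistar and from 429 TPM in SHR replicate 3 to 8563 in SHR replicate 1. Adipocyte markers summed to 202 TPM in SHR replicate 1 against 13.4 to 73.6 in the other rats, with Lep and Plin1 under 1 TPM. In ganglia sequenced as a whole, fewer cells of a type and less RNA per cell cannot be told apart.

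The promoter windows of the 3 genes whose records differed between the strains, described further on, are shown for where these genes start and what lies beside them. They are reference letters, the same for both strains, and entered no test. Each window holds 250 bases before and 50 after the annotated start (RefSeq, build GRCr8) and is written 5′ to 3′ on the strand of the gene. LOC100911370 lies on the minus strand at chr4:116020892-116021191, Xist on the minus strand at chrX:72558217-72558516 and LOC100910237 on the minus strand at chr1:23499840-23500139. Capitals mark the 50 bases after the start in LOC100911370 and Xist. In LOC100910237 they mark the 197 bases that lie inside the neighbouring gene Rps12, which is read in the opposite direction.
LOC100911370: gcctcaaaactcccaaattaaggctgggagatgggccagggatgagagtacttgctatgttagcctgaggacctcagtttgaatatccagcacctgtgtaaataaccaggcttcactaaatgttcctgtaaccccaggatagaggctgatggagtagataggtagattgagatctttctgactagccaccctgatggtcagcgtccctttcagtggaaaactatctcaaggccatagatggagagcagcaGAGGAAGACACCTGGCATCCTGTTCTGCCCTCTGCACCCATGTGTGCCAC
Xist: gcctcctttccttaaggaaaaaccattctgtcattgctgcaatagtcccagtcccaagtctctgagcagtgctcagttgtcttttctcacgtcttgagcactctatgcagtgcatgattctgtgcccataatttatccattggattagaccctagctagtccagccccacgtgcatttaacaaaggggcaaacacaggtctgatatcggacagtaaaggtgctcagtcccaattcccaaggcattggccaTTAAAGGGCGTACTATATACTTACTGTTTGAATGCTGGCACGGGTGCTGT
LOC100910237: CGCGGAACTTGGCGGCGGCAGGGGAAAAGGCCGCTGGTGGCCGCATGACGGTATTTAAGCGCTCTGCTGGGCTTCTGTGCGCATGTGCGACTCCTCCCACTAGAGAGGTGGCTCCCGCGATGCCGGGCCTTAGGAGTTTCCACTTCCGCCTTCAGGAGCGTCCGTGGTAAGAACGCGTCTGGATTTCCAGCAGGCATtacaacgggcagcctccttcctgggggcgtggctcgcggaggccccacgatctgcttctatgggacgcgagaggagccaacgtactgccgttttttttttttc
The windows differed in CpG content. LOC100910237 held 27 CpG dinucleotides, and 13.9% of all 33469 windows in the table held at least as many. Xist held 5 and LOC100911370 held 1, against a median of 7 over all windows. The TATA box letters TATAAA, searched on both strands, were in none of these 3 windows and in 14.2% of all windows. The letters CCAAT, searched the same way, were in the Xist window only, and in 37.5% of all windows. These matches are descriptions of the letters.

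The 2 most abundant of the 210 records were ribosomal RNA, the 28S RNA of the large ribosomal subunit (Rn28s, NR_046246) and the 18S RNA of the small subunit (Rn18s, NR_046237). The level of Rn28s was 6024, 6857, 6594 and 8077 TPM in Wistar replicates 1 to 4 and 9103, 9421, 7291 and 8746 TPM in SHR replicates 1 to 4. The level of Rn18s was 4355, 6242, 7003 and 7897 TPM in Wistar and 8183, 4042, 5495 and 7095 TPM in SHR. The strains overlapped for both. By edgeR's quasi-likelihood test the log2 fold change of SHR over Wistar was 0.32 (SE 0.14, adjusted p = 0.285) for Rn28s and -0.02 (SE 0.23, adjusted p = 0.972) for Rn18s. The sign of the Rn18s value changed in 4 of the 8 fits that left out a rat.

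The ratio of 28S to 18S TPM separated SHR replicate 2 from the other rats. It was 2.33 there, against 0.942 to 1.38 in the 4 Wistar rats and 1.11 to 1.33 in the other SHR. The precursor of both, Rn45s (NR_046239), amounted to 0.441% to 0.521% of the 28S TPM in Wistar. In SHR replicates 1 to 4 it amounted to 0.406%, 0.404%, 1.44% and 0.628%, so that SHR replicate 3 was highest. Normalised counts of Rn45s were 4396 to 6515 in Wistar, and 5897, 6133, 14437 and 8200 in SHR (log2 fold change 0.73, SE 0.27, adjusted p = 0.210 by edgeR).

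Without the 18S and 28S records, 106 of the other 208 long noncoding records (51.0%) were expressed, taken as at least 1 TPM in at least 4 of the 8 rats. It was 62.9% among NM_ records (11101 of 17642) and 12.99% among the shorter NR_ records (60 of 462). The median of the mean TPM over the expressed records was 5.70 for these long noncoding records and 10.7 for NM_ records. Of the 208, 34 had a mean of at least 10 TPM, 7 of at least 100 TPM, and 9 had no estimated read in any rat. By kind, 63 of 126 lncRNA gene records were expressed, 21 of 47 noncoding transcripts of protein-coding genes, 10 of 16 transcribed pseudogenes and 9 of 14 records without a gene. Expressed records had a median length of 1388 bases and the rest 1301 bases, which were close. A count of records at or above 1 TPM per rat was 98 to 108 in Wistar and 92 to 114 in SHR, lowest in SHR replicate 2 and highest in SHR replicate 3.

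A few records held most of the level. The record NR_038113, 359 bases long and without a gene in the table, was at 957, 878, 910 and 939 TPM in Wistar and 1252, 1229, 970 and 1149 TPM in SHR. Every SHR value was above every Wistar value in TPM, while the normalised counts of the strains overlapped (log2 fold change 0.34, SE 0.14, adjusted p = 0.238 by edgeR). Without SHR replicate 3 its adjusted p was 0.0325. Hmox2-ps1 (NR_045198), a transcribed pseudogene of the haem oxygenase gene Hmox2, was at 422, 908, 520 and 858 TPM in Wistar and at 776, 169, 1957 and 1127 TPM in SHR. Its lowest and highest values were therefore both in SHR, in replicates 2 and 3, and its strains did not separate (log2 fold change 0.54, SE 0.52, adjusted p = 0.640). Its estimated count was not whole in 7 rats, which happens when reads are divided between similar records. A count was taken as whole within 0.001.

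The next by level were LOC100909680 and LOC100911367, both from uncharacterised lncRNA genes. The first (NR_131077, 290 bases) was at 230, 462, 318 and 470 TPM in Wistar and 822, 213, 836 and 475 TPM in SHR. A second record of the same gene, NR_131078, had 167 TPM in SHR replicate 2 and at most 0.00436 TPM in the 7 other rats. Summed over both, the gene had 612, 1105, 768 and 1166 normalised counts in Wistar and 2072, 1011, 1833 and 1227 in SHR, so the sum left SHR replicate 2 lowest in its strain but within the Wistar range. LOC100911367 (NR_131090) was at 273 to 601 TPM in Wistar and 319 to 549 TPM in SHR, and these ranges overlapped almost fully.

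**Figure D1:**
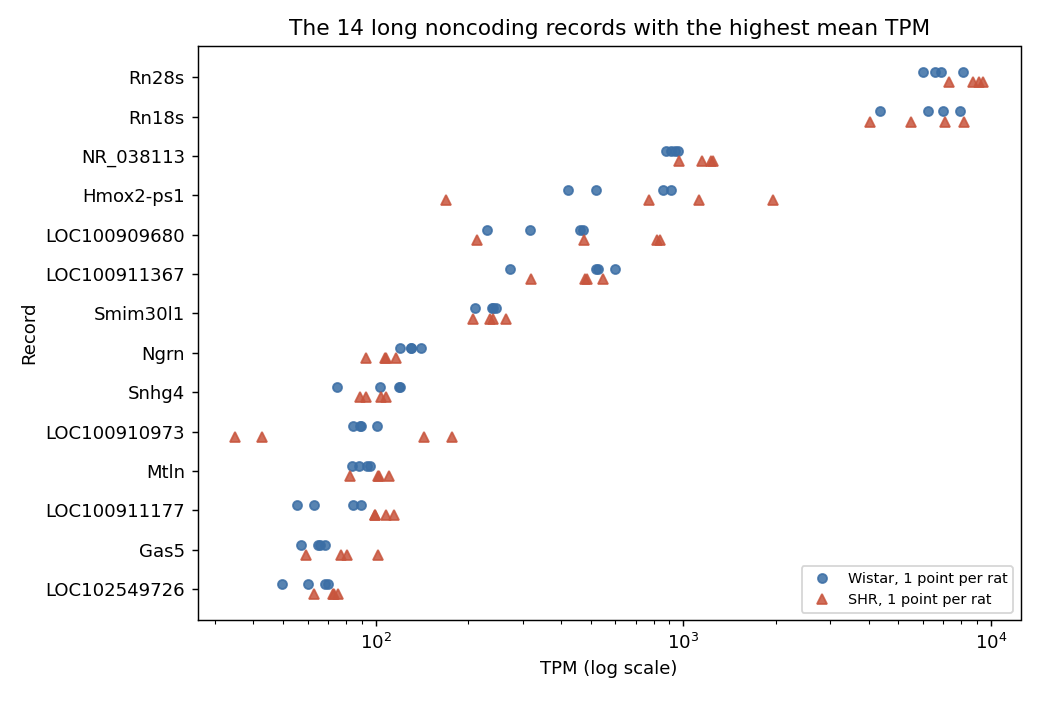
TPM (log scale) of the 14 long noncoding records with the highest mean, with 1 circle per Wistar rat and 1 triangle per SHR. Rn28s and Rn18s are at 4042 TPM or more in every rat, and in SHR Hmox2-ps1 spans 169 to 1957 TPM and LOC100910973 34.9 to 177 TPM.

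Below these, mean levels were 235 TPM for Smim30l1, 118 for the noncoding transcript of Ngrn (neugrin), 101 for Snhg4, 95.2 for LOC100910973, 94.8 for Mtln, 89.1 for LOC100911177, 71.9 for Gas5 and 66.5 for LOC102549726. Snhg4 and Gas5 host small nucleolar RNAs, and the RNA of Mtln has since been found to code for a small mitochondrial protein. LOC100910973 stood out by its spread in SHR. It was at 84.3, 101.1, 88.8 and 89.4 TPM in the Wistar rats, and at 177, 144, 34.9 and 42.7 TPM in SHR, so that SHR replicates 1 and 2 lay above and replicates 3 and 4 below every Wistar rat. None of these 8 passed the strain test, with adjusted p from 0.127 (Ngrn) to 0.893 (Smim30l1) by edgeR, and none passed with DESeq2. Ngrn and LOC100911177 had an unadjusted p under 0.05. LOC100911177 had 593, 565, 356 and 417 normalised counts in Wistar and 784, 706, 592.7 and 739 in SHR, which overlapped by a margin below 1 count (log2 fold change 0.55, SE 0.18, adjusted p = 0.156).

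The sum over the 208 records was 3873, 4500.5, 3896 and 4266 TPM in Wistar and 5054, 3964, 6263 and 4936 TPM in SHR. Means were 4134 ± 303 and 5054 ± 942 TPM (SD, n = 4 each), and SHR replicate 2 lay within the Wistar range. The difference in means did not pass 0.05 by an exact permutation test (p = 0.0857, Benjamini-Hochberg adjusted 0.286). In SHR replicate 3, where the sum was highest, Hmox2-ps1 alone held 1957 TPM of it. Without NR_038113 and Hmox2-ps1, the sums were 2466 to 2714 TPM in Wistar and 2565 to 3336 TPM in SHR. As a share of estimated counts, the 208 records held 0.320% ± 0.0475 in the Wistar rats and 0.416% ± 0.147 in the SHR, with overlap (SD, n = 4 each). The exact permutation test gave p = 0.314 for this share.

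Of 55 known noncoding RNAs on a reference list, 16 had a record among the 210. Meg3, an imprinted maternally expressed RNA, had 830.1, 339.7, 383 and 448 normalised counts in Wistar and 347, 354, 2061 and 1055 in SHR. Its values were high in SHR replicates 3 and 4 and the rest overlapped (log2 fold change 0.93, SE 0.55, adjusted p = 0.422 by edgeR). Without SHR replicate 3 the log2 fold change was 0.23. H19, another imprinted RNA, had 33.6, 42.6, 58.2 and 31.3 normalised counts in Wistar and 84.0, 23.4, 1.88 and 3.76 in SHR. In SHR it was thus high in replicate 1 and close to 0 in replicates 3 and 4 (log2 fold change -0.56, SE 0.88, adjusted p = 0.789). Without SHR replicate 1 the log2 fold change was -2.16 (adjusted p = 0.149), and without SHR replicates 3 or 4 it was -0.15 or -0.17. The 5 fibroblast markers, all at a mean of at least 1 TPM, summed to 949.5, 1066, 1266 and 735 TPM in Wistar and 1535, 934, 489.7 and 741 TPM in SHR, and ranked the rats of each strain in the same order as H19. So did the 5 macrophage markers, at 78.5, 82.1, 96.2 and 61.8 TPM in Wistar and 125, 118, 28.1 and 43.4 TPM in SHR. The adipocyte markers and the blood markers also ranked the SHR in that order, with SHR replicate 1 highest, but not the Wistar rats. No other marker list gave that order in both strains. The part of these cells in the H19 values was not tested.

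The structural RNAs of the list were Rn7sl1, the RNA of the signal recognition particle, at a mean of 47.9 TPM, Rpph1, the RNA of ribonuclease P, at 5.97 TPM, and Terc, the telomerase RNA, at 0.101 TPM. Terc had a normalised count of 1.06, 0.924 and 1.90 in Wistar replicates 2 to 4 and no read in the other rats. Tug1 was at a mean of 6.5 TPM, Dancr at 6.16, Oip5-as1 at 3.56, Hotairm1 at 3.23, Miat at 0.890 and Ftx, from the X inactivation centre, at 0.793. Crnde and Pantr1 had at most 3.19 and 1.92 normalised counts in a rat. Of the 16, the low records Terc, Crnde and Pantr1 as well as Rpph1 and Hotairm1 did not pass the filter on low counts, and among the 11 tested Xist alone was past the threshold.

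The filter on low counts left 133 of the 210 records, the 18S and 28S records included, in a test of 13659 records. Of the 133, 3 passed an adjusted p of 0.05 between SHR and Wistar (edgeR, quasi-likelihood, Benjamini-Hochberg over all records), 2 higher and 1 lower in SHR. This was 2.26% of the 133, beside 2.85% of all records tested (1.16% higher and 1.69% lower), a share near the background. At an unadjusted p under 0.05 there were 25 of 133 (18.8%), beside 16.8% of all records. With DESeq2 8 of 133 passed (6.02%), beside 5.72% of all records, and the 8 held the 3 of edgeR. All 3 records were from lncRNA genes.

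LOC100911370 (NR_102358, 751 bases) was present in Wistar and nearly absent in SHR. Its normalised counts were 129.7, 154, 141 and 154 in Wistar and 3.04, 0, 0 and 1.88 in SHR. The strains did not overlap (log2 fold change -6.69, SE 0.54, adjusted p = 0.000155 by edgeR). The reads behind this were 595 in the 4 Wistar rats and 5 in the 4 SHR, a ratio of 109.8 per unit of depth with a 95% exact interval of 46.8 to 339, which covers counting error only. The count was whole in every rat. This cannot exclude shared reads that were all given to another record, since a count of 0 is always whole. In the GRCr8 gene order the nearest genes with a record in the files were Gcfc2 and Mrpl19, and neither passed the test (log2 fold change 0.26 and 0.08, adjusted p = 0.724 and 0.731).

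LOC100910237 (NR_110684, 546 bases) showed the opposite pattern. Its normalised counts were 0.961, 0, 8.32 and 1.90 in Wistar and 61.8, 76.6, 49.9 and 65.8 in SHR. Every SHR value was above every Wistar value (log2 fold change 4.41, SE 0.70, adjusted p = 0.00811 by edgeR). The reads numbered 12 in Wistar, of which 9 were in replicate 3, and 243 in SHR, a ratio of 22.0 with a 95% exact interval of 12.3 to 43.1 for counting error only. Without Wistar replicate 3 the log2 fold change was 5.85. LOC100910237 starts head to head with Rps12, a protein of the small ribosomal subunit, and its window printed above runs into that gene. The Rps12 record was at a mean of 478 TPM in Wistar and 554 TPM in SHR (log2 fold change 0.24, SE 0.12, adjusted p = 0.364), which did not pass the test. The difference between the pair's changes was not tested.

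Xist (NR_132635), the RNA that coats the inactive X chromosome in female cells, was low in all rats, with a mean of 0.266 TPM. Its normalised counts were 32.7, 47.9, 32.3 and 52.2 in Wistar and 130.6, 66.2, 123 and 109 in SHR. The strains did not overlap (log2 fold change 1.38, SE 0.29, adjusted p = 0.0336 by edgeR), and SHR replicate 2 was the nearest to Wistar. The call was lost in 7 of the 8 fits that left out a rat, with adjusted p from 0.0543 to 0.110, and remained in the fit without SHR replicate 2 at 0.0221. The Xist count was not whole in any of the 8 rats, so some reads were divided with other records. Y-linked genes, looked up after Xist was seen to differ, had reads in every library. Ddx3y was at 24.6 to 27.2 TPM in Wistar and 16.3, 13.8, 25.4 and 24.8 TPM in SHR. Eif2s3y was at 112 to 118 TPM in Wistar and lower in every SHR, at 84.9, 99.2, 104 and 109 TPM. Usp9y was at 3.59 to 7.93 TPM in Wistar and 12.5, 4.95, 13.7 and 7.48 TPM in SHR, which overlapped. Ftx, a neighbour of Xist, had a log2 fold change of 0.14 (SE 0.45, adjusted p = 0.909).

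**Figure D2:**
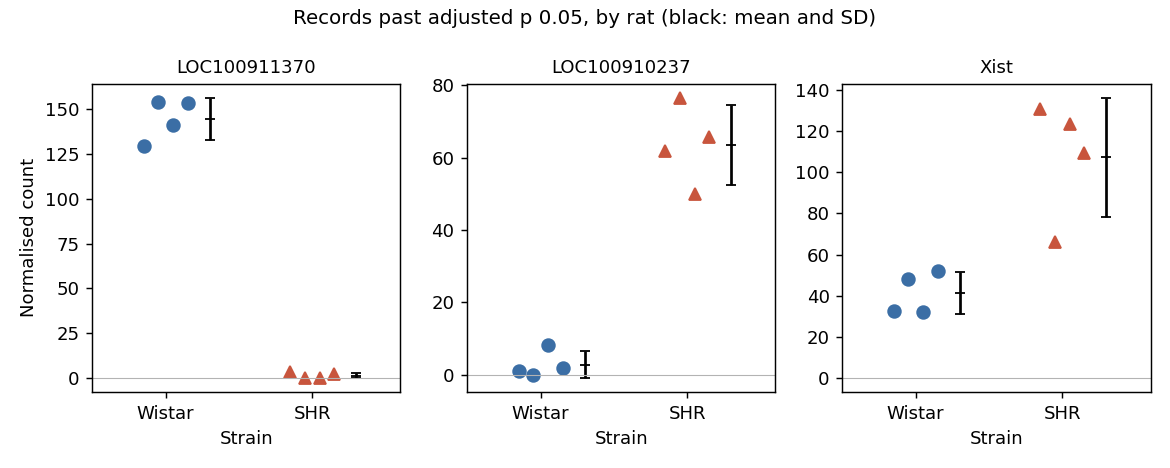
Normalised count by strain for the 3 long noncoding records past an adjusted p of 0.05, with 1 point per rat and the mean and SD in black. LOC100911370 was at 129.7 to 154 in Wistar and at most 3.04 in SHR, LOC100910237 at most 8.32 in Wistar and at least 49.9 in SHR, and Xist at 32.3 to 52.2 in Wistar and 66.2 to 130.6 in SHR.

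The 5 records next in order of p did not pass the threshold by edgeR. Prrc2c (NR_111961), listed as a transcribed pseudogene and 10464 bases long, had 7100, 8880, 6825 and 8963 normalised counts in Wistar and 13451, 9329, 13806 and 11098 in SHR. Every SHR value was above every Wistar value (log2 fold change 0.59, SE 0.15, adjusted p = 0.0704), and the adjusted p was 0.00664 with DESeq2 and 0.0399 by edgeR without SHR replicate 2. Ybx1-ps20, a pseudogene of the gene for the RNA-binding protein YBX1, had 104 to 156 normalised counts in Wistar and 167 to 302 in SHR, again without overlap (log2 fold change 0.87, SE 0.24, adjusted p = 0.0939, and 0.0213 with DESeq2).

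The other 3 of these had negative values. LOC102548399 had 29.8, 28.8, 12.9 and 23.7 normalised counts in Wistar and 8.10, 6.49, 9.41 and 4.70 in SHR (log2 fold change -1.71, SE 0.44, adjusted p = 0.0787). Abhd11-as1, the antisense RNA of the gene Abhd11, had 59.6, 37.3, 8.32 and 48.4 in Wistar and 5.64 to 11.3 in SHR. Wistar replicate 3 thus lay inside the SHR range (log2 fold change -2.03, SE 0.57, adjusted p = 0.104), and the record passed without that rat at 0.0275 and with DESeq2 at 0.0318. The coding record of Abhd11 itself had a log2 fold change of -0.13 (SE 0.11, adjusted p = 0.588). The noncoding transcript of Ppp2r2b, a regulatory subunit of protein phosphatase, had 1679 to 1869 normalised counts in Wistar and 1301 to 1571 in SHR, without overlap (log2 fold change -0.32, SE 0.09, adjusted p = 0.106).

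Over the 133 records the log2 fold change was above 0 in 89 (66.9%), beside 51% of all records, and its median was 0.21, beside 0.01 for all records. By kind, the 12 tested transcribed pseudogenes all had a value above 0, with a median of 0.56. Of the 79 tested lncRNA gene records 56 were above 0 (median 0.22), against 14 of 29 noncoding transcripts of protein-coding genes (median -0.09) and 4 of 9 records without a gene (median -0.11). These differences between kinds were not tested. No pseudogene passed edgeR's threshold, 3 had an unadjusted p under 0.05 and 2, Prrc2c and Ybx1-ps20, passed with DESeq2. The table's entry of Prrc2c as a pseudogene is uncertain, since a protein-coding gene carries that name in other species. Without it 11 of 11 were above 0 (median 0.54), 2 had an unadjusted p under 0.05 and 1 passed with DESeq2. Among the noncoding transcripts of protein-coding genes, none passed with edgeR or DESeq2 and 4 had an unadjusted p under 0.05. Normalised counts did not overlap between the strains in 14 of the 133 (10.5%), 8 with SHR above and 6 below, beside 10.6% of all records and 4.63% with SHR above.

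The order of the rats within a strain was shared by many of these records. SHR replicate 2 was the lowest of the SHR in 53 of the 131 tested records without 18S and 28S (40.5%), beside 26.7% of tested NM_ records. SHR replicate 3 was the highest in 57 of the 131 (43.5%), beside 26.1% of NM_ records. In Wistar, replicate 3 was the lowest in 49 (37.4%), beside 24.99% of NM_ records. Of the 12 pseudogenes, SHR replicate 2 was lowest in 10 and SHR replicate 3 highest in 9 (9 and 8 of 11 without Prrc2c), whereas among the 29 noncoding transcripts of protein-coding genes these counts were 5 and 7. The lncRNA gene records lay between, with SHR replicate 2 lowest in 35 of 79 and SHR replicate 3 highest in 37.

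**Figure D3:**
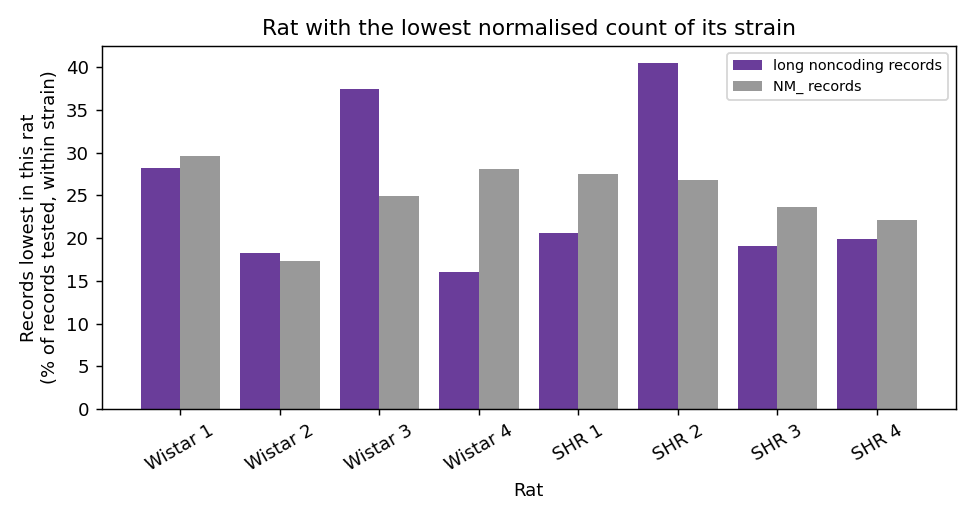
Percent of the 131 tested long noncoding records (purple) and of tested NM_ records (grey) in which each rat had the lowest normalised count of its strain. The purple bar of SHR replicate 2 reaches 40.5% and that of Wistar replicate 3 reaches 37.4%, against 26.7% and 24.99% of NM_ records.

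The lncRNA records Lnc001 (NR_126568), Lnc012 (NR_126570) and RGD1596092 (NR_144440), chosen after their values were seen, show the pattern. Lnc001 had 415, 507, 404 and 604 normalised counts in Wistar and 855, 332, 966 and 680.4 in SHR. Lnc012 had 697, 958, 731 and 1001 in Wistar and 1507, 549, 1631 and 1148 in SHR. RGD1596092 had 501, 842, 506 and 796 in Wistar and 1199, 458, 1313 and 956 in SHR. In all 3, Wistar replicates 1 and 3 were below replicates 2 and 4, SHR replicate 2 was below every other rat, and the other 3 SHR were above every Wistar rat. SHR replicate 2 had the fewest reads and the highest ratio of 28S to 18S, and SHR replicate 3 had the least blood marker RNA and the most Rn45s. The part of these in the order was not tested.

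Leaving out SHR replicate 2 changed the strain comparison of these records. The share of tested long noncoding records with an unadjusted p under 0.05 was then 31.7% of 139, beside 17.8% of all records, while in the 7 other fits that left out a rat it ran from 15.3% to 22.5%, beside 12.1% to 20.7% of all records. Without SHR replicate 2, 5 passed the threshold (3.597%, beside 2.24% of all records). The additional records were Prrc2c and Vof16, the latter with a log2 fold change of 0.97 (SE 0.18, adjusted p = 0.0342). SHR replicate 2 was singled out as often the lowest SHR in these same records, so the change without it is not independent of that choice.

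Rats of the same strain differed more in the long noncoding records than in NM_ records. The SD of log2 CPM within strain, pooled over both strains, had a median of 0.45 over the 131 records (quartiles 0.27 and 0.63) and of 0.26 over 13516 NM_ records. The noncoding records also had lower counts, since of 5 bins of mean count the lowest held 45 of the 131 and the next 41. In the lowest bin the medians of the noncoding and the NM_ records were 0.63 and 0.62, and in the middle bin 0.23 and 0.24. In bin 2 they were 0.39 and 0.34, and in bin 4 they were 0.22 and 0.18. In the highest bin, above 1831 normalised counts, they were 0.23 for 10 noncoding records and 0.15 for NM_ records. The median coefficient of variation was 23.2% in Wistar and 31.1% in SHR for these records, and 14.8% and 18.2% for NM_ records. Without SHR replicate 2 the SHR value was 22.2% for these records and 17.5% for NM_ records.

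**Figure D4:**
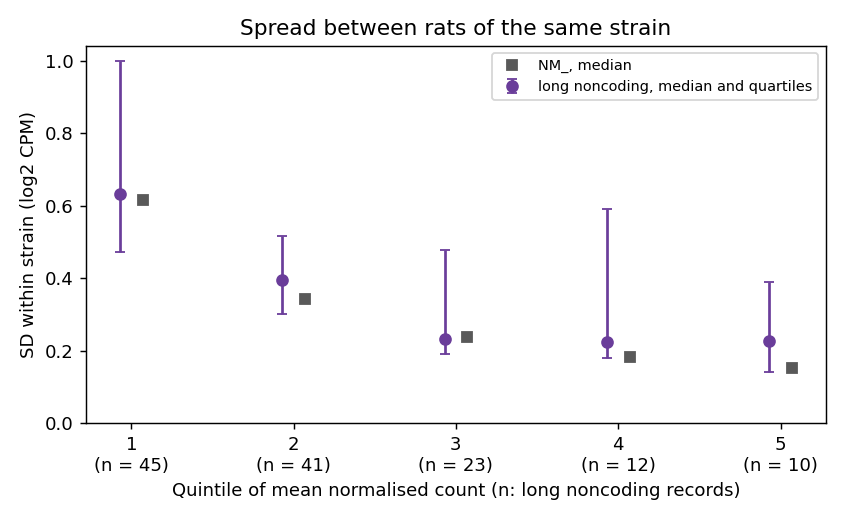
SD of log2 CPM within strain over 5 bins of mean normalised count (1 lowest, 5 highest), with the median and quartiles of the long noncoding records (circles) and the median of the NM_ records (squares). Both fall from 0.63 and 0.62 in bin 1 to 0.23 and 0.15 in bin 5.

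Among records with a mean of at least 1 TPM, the steadiest were LOC689316 (NR_144438, SD 0.087), Ppp2r2b (0.092), Ngrn (0.098) and NR_045202 (0.11). LOC689316 had 372 to 420 normalised counts in Wistar and 280 to 319 in SHR, which did not overlap (log2 fold change -0.41, SE 0.12, adjusted p = 0.123 by edgeR). The most variable were NR_131078 of LOC100909680 (SD 2.76), P2rx3 (2.21), Ssna1 (1.64) and RT1-CE6 (1.36), a class I histocompatibility gene. RT1-CE6 had 76.7 normalised counts in Wistar replicate 3 and 1.92 to 10.6 in the other rats, and did not pass the filter for the test. Ssna1 had 26.8 to 54.5 normalised counts in 7 rats and 0 in SHR replicate 1, and all 4 of these records had counts that were not whole in at least 1 rat.

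P2rx3 codes for an ATP-gated cation channel, and its noncoding transcript (NR_073054) differed in its share of the gene's reads. The noncoding record had 179.7, 257, 233 and 226 normalised counts in Wistar and 0, 0, 15.1 and 184 in SHR, so that SHR replicates 1 to 3 lay below every Wistar rat and SHR replicate 4 within the Wistar range. It did not pass the test with all rats (log2 fold change -2.14, SE 1.13, adjusted p = 0.368 by edgeR), and without SHR replicate 4 its log2 fold change was -5.32 with an adjusted p of 0.0214. The coding record NM_031075 went the other way, with 187, 55.4, 116 and 157 normalised counts in Wistar and 453, 393, 605 and 306 in SHR (log2 fold change 1.77, SE 0.35, adjusted p = 0.0243). The other coding record, NM_001270621, had 14.4, 84.1, 0 and 0 in Wistar and 188, 0, 0 and 80.8 in SHR. It varied from rat to rat and did not pass (log2 fold change 1.47, SE 1.61, adjusted p = 0.684).

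The noncoding record held 47.1%, 64.7%, 66.7% and 59.0% of the reads of P2rx3 in Wistar and 0%, 0%, 2.46% and 32.2% in SHR. Summed over its 3 records, the gene had a log2 fold change of 0.57 (adjusted p = 0.0999 by edgeR). The study, with DESeq2 on gene sums, listed P2rx3 among its differentially expressed genes. It reported the same trend for this gene by quantitative PCR, where P2rx3 was not among the genes that reached significance. The noncoding record's count was not whole in 6 rats, so reads were divided between records. The levels of the separate records are therefore uncertain, and no counting limit is given for the shares of 0. Among the 21 expressed noncoding transcripts of protein-coding genes, the mean share in SHR minus that in Wistar was -50.7 percentage points for P2rx3, and from -7.76 (Dnlz) to 2.22 (Flot2, NR_073076) for the 20 others. The shares did not overlap between the strains for 2 of the 21, P2rx3 and Dcaf11 (NR_073087). Beside this, normalised counts, a different measure, did not overlap in 10.6% of all records tested. Dcaf11 held 47.7% ± 1.95 and 44.2% ± 2.16, while Ngrn, for example, held 75.6% ± 0.81 and 75.8% ± 1.69 (SD, n = 4 each). Among transcripts below the limit for expressed, mean shares also differed, with wide spread. That of Hrh3 held 30.3% ± 23.5 in Wistar and 0.0359% ± 0.0718 in SHR, and that of Gcgr 28.6% ± 32.2 and 57.0% ± 39.7. That of Bod1 held 4.40% ± 5.60 and 18.3% ± 8.20. The shares of all of these overlapped between the strains. The shares were not tested, and these examples were chosen after their values were seen.

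**Figure D5:**
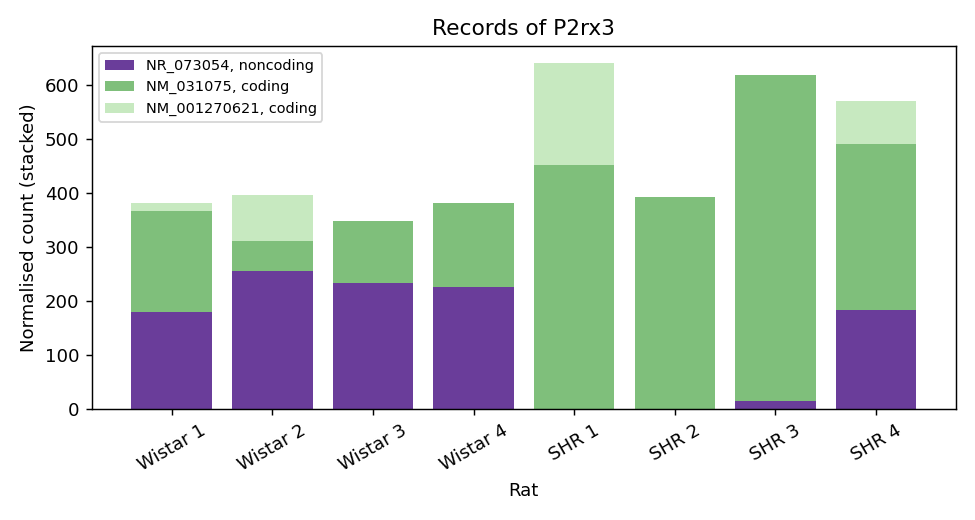
Normalised counts of the 3 records of P2rx3 in each rat, stacked, with the noncoding record in purple and the coding records in green. The purple segment is 179.7 to 257 in Wistar, and 0, 0, 15.1 and 184 in SHR replicates 1 to 4.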

How the data were processed

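RNA of right stellate ganglia of 4 Wistar rats and 4 SHR was sequenced by the authors as 1 library per rat. The authors quantified reads against rat RefSeq transcripts (rn6) with Salmon 0.8.2, and the submitters' processing notes also name FastQC 0.11.7. Each deposited file lists, per record, Salmon's estimated count, in which shared reads are divided, its TPM and its lengths. Estimated counts were rounded, filtered with filterByExpr, scaled by TMM and tested with edgeR 4.0.16 (glmQLFit, glmQLFTest) in R 4.3.3, with Benjamini-Hochberg adjustment over all records and a threshold of 0.05. Standard errors were obtained as the size of the log2 fold change over the root of edgeR's F. A normalised count is the TMM-scaled count at the mean effective library size. A prior count of 2 went into the log2 CPM behind the SD. The sum without the pair of most abundant records was an alternative chosen after seeing the data. The study summed records to genes for DESeq2, whereas records were tested singly here, with DESeq2 1.42.0 as an alternative together with gene sums, other filters and scaling, and fits without each rat. The p-values of the strain comparison set the difference between strains against the spread between rats of a strain.

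Gene names, kinds of record and neighbours come from the RefSeq gene table of GRCr8, which paired 17360 of 18314 records. Promoter windows were found for 129 of 172 genes. No coordinates of rn6 were used. The rules for named records took the 2 ribosomal records, the 12 others with the highest mean TPM, every record past the threshold, the 5 next by p, the 4 largest and 4 smallest SDs at a mean of at least 1 TPM, the longest and shortest record, and a list of 55 known noncoding RNAs. Others, such as Rn45s, Lnc001, Lnc012, RGD1596092, Vof16, Hrh3 and the noncoding transcripts whose shares are given, were named after their values were seen. The members and lists were chosen with earlier results of these data known. The fits were tested on simulated data. Depth was 25820299 to 35509074 counts per rat, and counting intervals cover counting error only. The labels and the methods name different library and extraction kits.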

Additional observations from a re-analysis of the deposited data

Results flagged for a closer look

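Of 102 groups of 4 rats examined, 10 held a rat far from the 3 others of its strain by Dixon's criterion, where chance gives about 1 in 20 groups, or 5.1. In SHR, replicate 4 had 184 normalised counts of the P2rx3 noncoding record against 0 to 15.1 in the others. SHR replicate 3 had 1830.0 of NR_045202 against 2156 to 2196. SHR replicate 2 had 166 of Snhg4 against 133 to 136, and 444 of NR_131078 (LOC100909680) against 0. SHR replicate 1 had 5127 of LOC100911367 against 7610 to 8019.

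In Wistar, replicate 4 had 642922 normalised counts of Rn28s against 491851 to 510601. Wistar replicate 3 had 76.7 of RT1-CE6 against 1.92 to 10.6, and Wistar replicate 2 had 3.19 of Crnde against 0. The summed TPM without the ribosomal records, NR_038113 and Hmox2-ps1 was 2714 in Wistar replicate 2 against 2466 to 2493 in the others. The TPM of Rn45s as a percent of that of Rn28s was 0.441 in Wistar replicate 2 against 0.513 to 0.521.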

How the results depend on the processing

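The same 3 long noncoding records were called with DESeq2's size factors in edgeR, with an effective length offset, with no filter and without the 18S and 28S records. DESeq2 called 8 (780 of all records), a filter of at least 10 counts in every rat left 1, Xist, since the others were not tested, and summing records to genes called the genes of the same 3 and Oprm1, whose noncoding record held a read in 1 rat only (386 of all genes, 2.95%). The replicate numbers did not pair the rats (same-number correlations from -0.29 to -0.04). With the replicate block 1 long noncoding record, LOC100911370, and 132 of all records passed, and the adjusted p was 0.0712 for LOC100910237 and 0.205 for Xist. Leaving out each rat gave 2 to 5 long noncoding records and 237 to 454 of all records, a median log2 fold change of 0.14 to 0.27 and a median SD of 0.36 to 0.47. Hrh3, whose noncoding record had 0 counts in Wistar replicate 1 and in every SHR, was called without that rat and in no other fit run.

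At 5 TPM in 4 rats 59 records were expressed in place of 108, and with a prior count of 5 the median SD was 0.41. Of 535 alternative values of the named records, 503 kept sign and side of the threshold, 9 lost the call, 7 gained it and 16 changed sign. None of those that changed sign was called. The log2 fold change was 0.57 for P2rx3 summed to its gene and -0.19 for LOC100910973 with the replicate block. The other sign changes came from leaving out a rat, which gave log2 fold changes of -0.48 to 0.25 for Ssna1, -0.22 to 0.012 for Snhg4, -0.23 to 0.50 for LOC100910973, -0.22 to 0.12 for Rn18s, -0.017 to 0.11 for Smim30l1, -0.24 to 0.11 for LOC100911367 and -0.29 to 0.34 for Ftx. The cause was not tested. The filter on low counts left out 77 of the 210 records, and with no filter 200 were tested. Counts shared between similar records were not whole in at least 1 rat for 116.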
